A study of Homo sapiens with 6 samples.

Results

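The genes described here are the collagen chains and the enzymes and chaperone that mature them. They were chosen by name: every symbol of the form *COLnAn*, and a set of 13 named genes made of the lysyl oxidases (*LOX*, *LOXL1* to *LOXL4*), the lysyl hydroxylases (*PLOD1* to *PLOD3*), the subunits of prolyl 4-hydroxylase (*P4HA1* to *P4HA3* and *P4HB*) and the collagen chaperone *SERPINH1*. This gave 57 of the 61228 genes in the table, 44 collagens and 13 maturation genes. RNA-seq was performed on HBE cells, an immortalized line of human bronchial epithelium, of wild-type genotype, in 6 libraries. Of these, 3 came from cells given cockroach extract (CRE, an allergen mixture) for 24 h. The other 3 came from cells given CRE and VAF347, a small-molecule agonist of the aryl hydrocarbon receptor (AhR), for 24 h. The paper's methods describe VAF347 as a pre-treatment, given before CRE. Both groups received CRE, so the comparison addresses what the agonist changes in allergen-treated cells, and a group given VAF347 alone was not analysed here. The labels do not say whether the 3 libraries of a group came from separate cultures, so the p-values measure the spread between these libraries, which may be technical.

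Collagens are secreted proteins built from 3 chains wound into a triple helix, and each collagen type has its own chain partners. Inside the cell, prolyl 4-hydroxylase stabilises the helix, lysyl hydroxylases prepare lysines for glycosylation and cross-linking, and the chaperone encoded by *SERPINH1* binds the folded helix. Outside the cell, lysyl oxidases cross-link the fibrils. Bronchial epithelium rests on a basement membrane rich in type IV and type XVIII collagen, is held to it by collagen XVII in hemidesmosomes and anchored through collagen VII, while most fibrillar collagen of the airway wall is made by fibroblasts. AhR is a ligand-activated transcription factor, and *CYP1A1*, its classical target, rose from 5 to 8 counts per library with CRE to between 412 and 460 after VAF347.

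Library depth ran from 8873160 to 10750283 estimated counts. Of the 10 epithelial markers examined, *KRT14* and *TP63* stayed at 3 counts or fewer in every library, and the summed level of the list ran from 4373 to 5315 TPM (transcripts per 1000000, a length-corrected level) with CRE and from 4394 to 4535 TPM with CRE + VAF347. Of 10 fibroblast markers, 6 had 3 counts or fewer in every library, and *PDGFRA*, *DCN*, *LUM*, *DPT* and *POSTN* had 0. The sum of that list was 314 to 380 TPM with CRE and 258 to 268 TPM with CRE + VAF347, and *FBLN1* made up 96.4% of it. The 5 endothelial markers summed to 9.41 to 10.4 TPM with CRE and 6.03 to 7.46 TPM with CRE + VAF347, with *PECAM1* and *TEK* at 3 counts or fewer. Of the 3 tested, 2 were lower at an adjusted p under 0.05 and by more than 0.5 on the log2 scale, against 1.71% of all genes. These were *CDH5* (log2 fold change -0.84, adjusted p = 0.00119, edgeR) and the scarcer *VWF* (-1.45, adjusted p = 0.0107, edgeR). *KDR* went the other way (0.14, adjusted p = 0.683, edgeR). The 5 leukocyte markers summed to 24.7 to 28.3 TPM and 16.98 to 22.6 TPM, mostly *CD68*. The fibroblast, endothelial and leukocyte sums were thus lower in the CRE + VAF347 libraries together with the collagens, and their part in the results was not tested. In bulk RNA, fewer cells of a type and less RNA per cell cannot be told apart.

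Of the 57 genes, 32 passed the filter on low counts and were tested, 21 collagens and 11 maturation genes. The other 25, 23 collagens with *LOX* and *P4HA3*, reached at most 11 counts in any library; 16 of them never exceeded 3 counts, and *COL13A1* and *COL19A1* had 0 throughout. By mean TPM over the 6 libraries, 10 collagens lay over 10 TPM, 17 over 1 TPM and 27 under 1 TPM. The highest was *COL4A2*, a basement membrane chain, at 62.1 TPM, 24.1% of all collagen TPM. It was followed by *COL17A1* at 40.2 TPM, *COL18A1* at 22.7, *COL5A1* at 19.1, *COL1A1* at 17.7, *COL4A1* at 15.0, *COL7A1* at 13.5, *COL9A3* and *COL4A5* at 12.7, *COL6A1* at 10.8 and *COL9A2* at 9.28 TPM. These 11 genes held 91.3% of the collagen TPM. The maturation genes were more abundant, with 8 of 13 over 50 TPM. *P4HB*, the shared beta subunit of prolyl 4-hydroxylase and a protein disulfide isomerase, had a mean of 320.2 TPM, *LOXL2* 151, *SERPINH1* 121, *PLOD3* 86.5 and *PLOD2* 79.0 TPM. *LOX* itself was at 0.27 TPM.

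Several chains were present without the partners with which they usually assemble. *COL1A1* had a mean of 17.7 TPM and its partner *COL1A2* 0.22 TPM. *COL5A1* was at 19.1 TPM against 0.43 TPM for *COL5A2* and 0.01 TPM for *COL5A3*. In type VI, *COL6A1* at 10.8 TPM and *COL6A2* at 4.73 TPM stood beside *COL6A3*, *COL6A5* and *COL6A6* at 0.013, 0.003 and 0.013 TPM. In type IX, *COL9A2* and *COL9A3* were expressed and *COL9A1* was at 0.02 TPM. Type IV was the exception, with both *COL4A1* and *COL4A2* and, at lower levels, *COL4A5* and *COL4A6* at 12.7 and 3.63 TPM, while *COL4A3* and *COL4A4* were at 0.17 and 0.14 TPM. These patterns held in both treatment groups, and they describe RNA, not assembled protein.

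**Figure D1:**
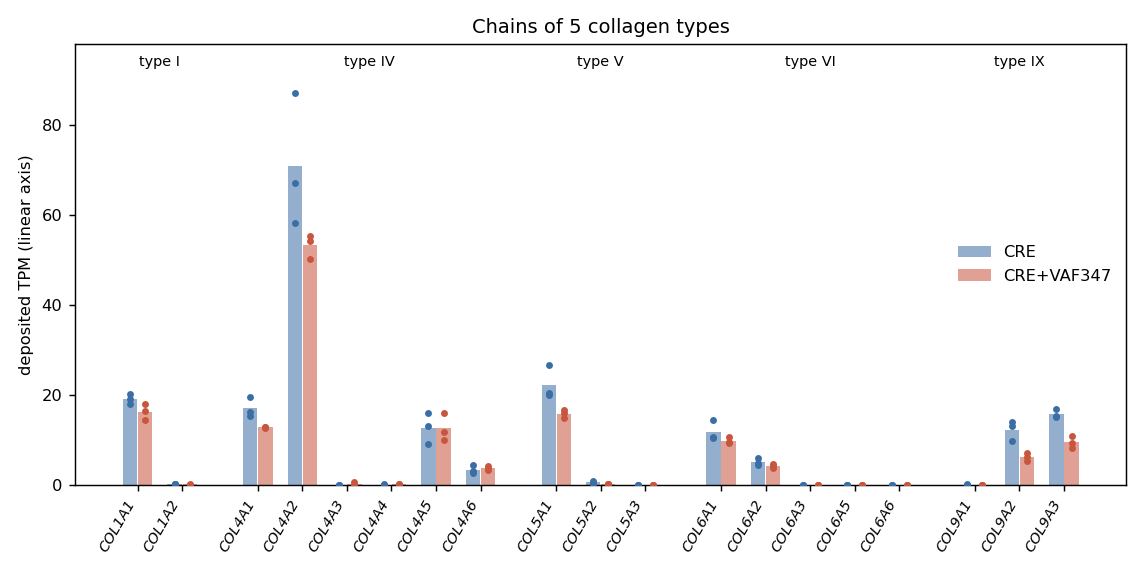
Deposited TPM (linear axis) of each chain of collagen types I, IV, V, VI and IX, with 1 point per library and a bar from 0 to each group mean, CRE in blue and CRE + VAF347 in red. *COL4A2* is the highest chain, and *COL1A2*, *COL5A2*, *COL5A3*, *COL6A3*, *COL6A5*, *COL6A6* and *COL9A1* lie near 0 beside their expressed partners.

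Collagen transcripts were lower in the CRE + VAF347 libraries across most classes. Tested with edgeR over all 15373 genes, 7 of 21 collagens passed an adjusted p of 0.05 together with a fall of more than 0.5 on the log2 scale, against 1.71% of all genes tested, and 0 passed in the higher direction, against 0.501%. At an adjusted p under 0.05 and any fold, 11 of 21 collagens were lower, against 4.07% of all genes. No collagen was higher at an unadjusted p under 0.05 in edgeR (0 of 21, against 8.87% of all genes), and DESeq2 and limma also called 0 higher. The 3 CRE + VAF347 libraries all lay below the 3 CRE libraries for 12 of 21 collagens, against 14.8% of all genes, and lay above them for 0, against 12.5%. The fitted change was under 0 for 19 of 21 collagens and 47.9% of all genes. The median log2 fold change was -0.38 for the collagens, -0.14 for the maturation genes and 0.01 for all genes tested. The fitted change of every called gene stayed lower under each alternative tried, but on TPM values limma called 0 of 17 collagens, with 8 of them lower at an unadjusted p under 0.05. The share of all genes called by DESeq2 or limma is not given here to set beside these counts.

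**Figure D2:**
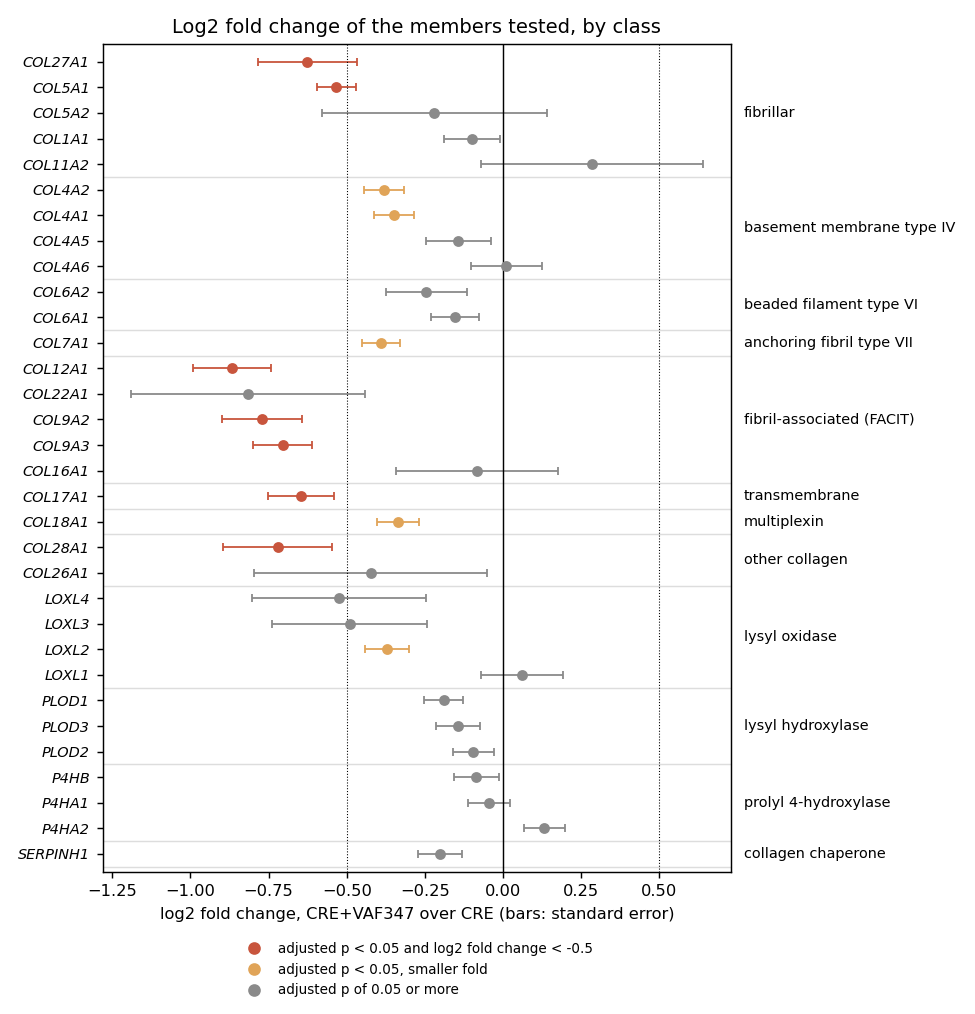
Log2 fold change of CRE + VAF347 over CRE (edgeR) with its standard error for each of the 32 genes tested, grouped by collagen class and enzyme family; red marks genes past both thresholds, orange an adjusted p under 0.05 with a smaller fold, grey the others, and dotted lines the fold threshold of 0.5. The fibril-associated collagens reach furthest down, to -0.87 for *COL12A1*, and the prolyl 4-hydroxylase subunits and lysyl hydroxylases sit between -0.19 and 0.13.

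The fibril-associated collagens (FACITs), which decorate the surface of larger fibrils rather than forming them, had the lowest median, -0.77 over 5 tested of 10, and 3 of the 5 fell: *COL12A1*, *COL9A2* and *COL9A3*. Their summed level was 36.5 ± 2.94 TPM (SD, n = 3) with CRE and 21.9 ± 2.03 TPM with CRE + VAF347, 60.1% of the CRE level. *COL12A1* (ENSG00000111799.22, chr6:75084326-75206267), a chain that binds type I fibrils and is found in tendon and skin, was at 28.8, 29.4 and 33.4 counts per 1000000 (CPM, scaled to library size) with CRE and 18.9, 18.2 and 13.4 CPM with CRE + VAF347. The groups were far apart, and the third CRE + VAF347 library was the lowest. The log2 fold change was -0.87 (SE 0.12, adjusted p = 0.0026, edgeR). *COL9A2* (ENSG00000049089.15, chr1:40300489-40317813), a type IX chain best known from cartilage, was at 20.2, 26.5 and 20.7 CPM with CRE and 14.7, 12.2 and 12.7 CPM with CRE + VAF347, and the log2 fold change was -0.77 (SE 0.13, adjusted p = 0.00602, edgeR). Its partner *COL9A3* (ENSG00000092758.18, chr20:62816244-62841159) was at 28.6, 29.2 and 25.0 CPM and 16.3, 17.6 and 16.9 CPM, with a log2 fold change of -0.70 (SE 0.09, adjusted p = 0.00173, edgeR). The ratio of *COL9A2* to *COL9A3* TPM overlapped between the groups, from 0.64 to 0.91 with CRE and from 0.49 to 0.87 with CRE + VAF347. *COL9A3* overlaps *TCFL5* on the other strand, and no source used here states whether the counting used strand. The remaining tested FACITs were low: *COL16A1* stayed between 1.77 and 2.43 CPM in all libraries (log2 fold change -0.08, SE 0.26), and *COL22A1* between 0.421 and 1.495 CPM (-0.82, SE 0.37, adjusted p = 0.244, edgeR).

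Because AhR with its partner ARNT binds a core motif, GCGTG on either strand, the 250 bases before to 50 bases after the start of each gene were searched for it in RefSeq sequence (GRCh38.p14). A window was found for 43 of the 57 genes. The motif was in 36.5% of all 35116 windows and, counted by gene, in 40.6% of 27305 genes. It was in the windows of 2 of the 6 called collagens that had one, *COL9A2* and *COL12A1*, and of 8 of the 16 tested genes with an adjusted p over 0.05. The GC box GGGCGG, on either strand, was in 44.95% of all windows and, counted by gene, in 48.3% of 27305 genes. It was in the windows of 4 of the 6 called collagens and 11 of the 16 others. Both motif stretches are printed 5′ to 3′ on the gene's strand, with the bases of the match in capitals. That of *COL9A2*, at chr1:40317310-40317353 on the minus strand, lies outside annotated exons and has its match 54 bases before the RefSeq start. The full window of *COL9A2* holds 2 matches, and the printed stretch holds 1 of them. That of *COL12A1*, at chr6:75206215-75206239 on the minus strand, has the match 172 bases before the RefSeq start, within a first exon of a longer GENCODE transcript.
COL9A2: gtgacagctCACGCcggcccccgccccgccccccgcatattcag
COL12A1: atcgccacctCACGCcgaaggaatg
A match of 5 letters is a description of the sequence and does not show binding.

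*COL17A1* (ENSG00000065618.21, chr10:104031286-104085880), the only one of 4 transmembrane collagens to be tested and a component of the hemidesmosomes that fix basal cells to the basement membrane, also fell. It was at 160.5, 174.3 and 190.6 CPM with CRE and 126.7, 117.2 and 92.0 CPM with CRE + VAF347, means of 175 ± 15.1 and 112 ± 18.0 CPM (SD, n = 3). The groups did not overlap, but the spread within each was wide. The log2 fold change was -0.65 (SE 0.11, adjusted p = 0.00555, edgeR), and it was -0.50 (adjusted p = 0.202, edgeR) when each library's effective transcript length was taken into account. The TPM values, which carry that length, overlapped between the groups, at 39.8, 49.8 and 53.3 with CRE and 42.1, 30.7 and 25.6 with CRE + VAF347. The 250 bases before its RefSeq start (chr10:104085881-104086130, minus strand), shown as the sequence of the most abundant collagen called, hold neither motif.
COL17A1: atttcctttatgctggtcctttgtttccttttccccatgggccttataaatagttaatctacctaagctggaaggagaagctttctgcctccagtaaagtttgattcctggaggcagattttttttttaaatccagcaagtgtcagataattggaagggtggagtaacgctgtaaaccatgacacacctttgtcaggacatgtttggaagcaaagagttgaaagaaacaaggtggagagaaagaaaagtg

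Among the fibrillar collagens, which form the striated fibres of connective tissue, 5 of 11 were tested and 2 fell, *COL5A1* and *COL27A1*. *COL5A1* (ENSG00000130635.17, chr9:134641803-134844843), which nucleates and limits the width of type I fibrils, had the smallest adjusted p of the collagens and maturation genes, and it overlaps the antisense gene *COL5A1-AS1*. It was at 151, 154 and 165 CPM with CRE and 109, 103 and 113 CPM with CRE + VAF347, a narrow spread in both groups. The log2 fold change was -0.53 (SE 0.06, adjusted p = 0.00069, edgeR), just past the fold threshold, and it was -0.49 without CRE replicate 3 and -0.45 (adjusted p = 0.0317, edgeR) with the effective length offset, each under that threshold in size. *COL27A1* (ENSG00000196739.15, chr9:114155537-114312511), a cartilage fibrillar chain, was at 8.39, 8.24 and 11.0 CPM with CRE and 6.07, 6.31 and 5.59 CPM with CRE + VAF347. The change on the log2 scale was -0.63 (SE 0.16, adjusted p = 0.0437, edgeR); the call was lost when any of the 6 libraries was left out and with DESeq2. *COL1A1*, the main chain of type I collagen, was at 44.9, 39.8 and 36.1 CPM with CRE and 39.3, 36.0 and 37.5 CPM with CRE + VAF347. These groups overlapped, with a log2 fold change of -0.10 (SE 0.09, adjusted p = 0.572, edgeR). *COL5A2* lay between 0.883 and 2.15 CPM in all libraries (-0.22, SE 0.36) and *COL11A2* between 0.725 and 1.40 CPM (0.28, SE 0.35). *COL1A2* was too low to test, at 11, 10 and 8 counts with CRE and 3, 2 and 3 with CRE + VAF347, and without the filter its adjusted p was 0.0657 in edgeR.

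*COL28A1* (ENSG00000215018.10, chr7:7356203-7535873), a collagen with von Willebrand factor A domains outside the main classes, was at 6.32, 7.26 and 7.48 CPM with CRE and 4.16, 5.05 and 3.59 CPM with CRE + VAF347. The change on the log2 scale was -0.72 (SE 0.17, adjusted p = 0.0355, edgeR), and the call was lost when any of the 6 libraries was left out and with DESeq2. *COL26A1*, placed beside it for lack of a class, lay between 0.631 and 1.69 CPM in all libraries (-0.42, SE 0.37).

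**Figure D3:**
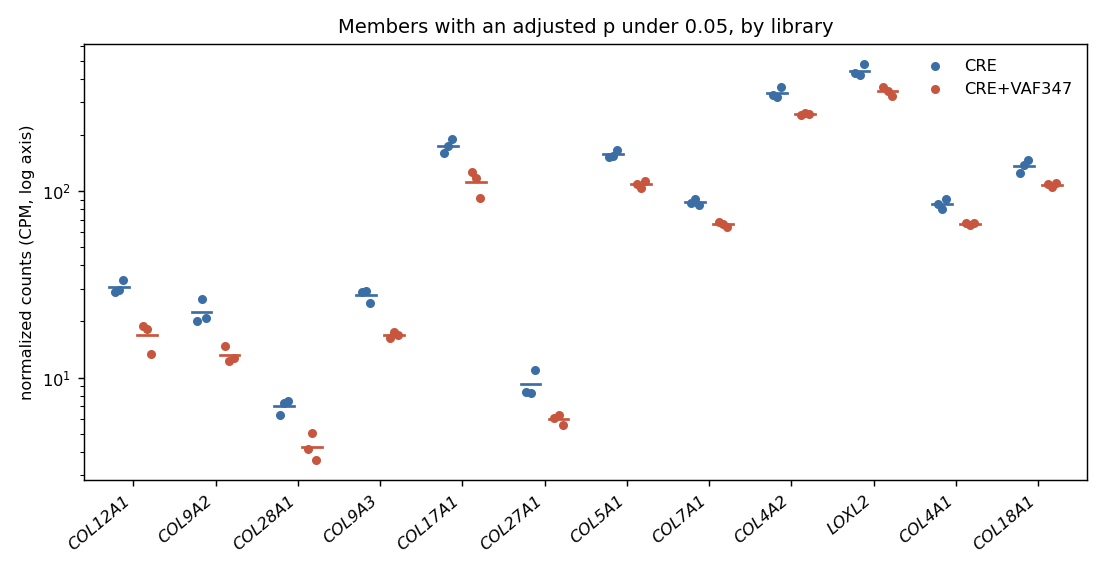
CPM (log axis) in each library of the genes with an adjusted p under 0.05, with CRE in blue, CRE + VAF347 in red and a bar at each group mean. For each of the 11 collagens and *LOXL2*, the 3 CRE + VAF347 libraries lie below the 3 CRE libraries.

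The basement membrane collagens were lower by a smaller margin. Of type IV, 4 of 6 chains were tested, 0 fell by more than the fold threshold and 2 were lower at an adjusted p under 0.05. By DESeq2 and limma none of these chains passed both thresholds either. At an adjusted p under 0.05 and any fold, *COL4A1* and *COL4A2* were also lower with DESeq2, but not with limma. *COL4A2* (ENSG00000134871.19, chr13:110305812-110513209) was at 327, 321 and 363 CPM with CRE and 254, 263 and 259 CPM with CRE + VAF347, and the log2 fold change was -0.38 (SE 0.06, adjusted p = 0.00608, edgeR). *COL4A1* (ENSG00000187498.16, chr13:110148963-110307157) was at 84.8, 79.9 and 90.2 CPM and 67.4, 65.8 and 66.9 CPM, a log2 fold change of -0.35 (SE 0.07, adjusted p = 0.0107, edgeR). With the effective length offset the adjusted p was 0.129 for *COL4A2*, and *COL4A1* was over 0.05 without CRE + VAF347 replicate 2 (0.061) or replicate 3 (0.052). The pair moved side by side: the ratio of *COL4A2* to *COL4A1* TPM was 4.13 ± 0.48 (SD, n = 3) with CRE and 4.15 ± 0.18 with CRE + VAF347. *COL4A5* and *COL4A6*, the chains of a second type IV network, had log2 fold changes of -0.14 (SE 0.10) and 0.01 (SE 0.11), with overlapping groups. The genes of both pairs lie head to head. The RefSeq starts of *COL4A1* and *COL4A2* are 127 bases apart, and those of *COL4A5* and *COL4A6* 380 bases apart, so each pair shares a promoter region. The stretch between *COL4A1* and *COL4A2* outside annotated exons, chr13:110307158-110307257, is printed on the plus strand because both genes start from it and had similar log2 fold changes. It holds the GC box and no AhR core, but the full window of *COL4A2* holds 1 AhR core outside the printed stretch, and that of *COL4A1* holds 0.
COL4A1-COL4A2: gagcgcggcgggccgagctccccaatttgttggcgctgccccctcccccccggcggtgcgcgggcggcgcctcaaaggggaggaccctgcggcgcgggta
Transcripts of the pair overlap on opposite strands at this end, so a few reads could be counted to the other gene.

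*COL18A1* (ENSG00000182871.16, chr21:45405165-45513720), a heparan sulfate proteoglycan of basement membranes from which endostatin is released, was at 125, 137 and 147 CPM with CRE and 109, 105 and 111 CPM with CRE + VAF347. The log2 fold change was -0.34 (SE 0.07, adjusted p = 0.0171, edgeR), and the adjusted p was over 0.05 with the GC offset (0.104), with the effective length offset (0.17) and in 4 of the 6 fits with a library left out. It overlaps 2 antisense genes and *SLC19A1*. *COL7A1* (ENSG00000114270.18, chr3:48564073-48595329), the anchoring fibril collagen, was at 86.3, 90.2 and 84.5 CPM with CRE and 67.9, 66.8 and 64.4 CPM with CRE + VAF347, with a log2 fold change of -0.39 (SE 0.06, adjusted p = 0.00432, edgeR). In TPM it barely differed, at 13.28, 14.40 and 13.995 with CRE and 12.37, 13.87 and 12.99 with CRE + VAF347. The gap between these scales is the effective length that Salmon assigned to its mix of transcripts, 0.79 times as long with CRE + VAF347 as with CRE. *COL7A1* was the only one of the 32 tested genes whose effective lengths did not overlap between the groups, a difference in that direction seen in 7.66% of all genes. With the length as an offset its log2 fold change was -0.05. Its share of all collagen TPM was 4.77% with CRE and 5.90% with CRE + VAF347.

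The type VI collagens, which form beaded filaments around basement membranes, had 2 of 5 chains tested and overlapping groups for both. *COL6A1* was at 41.0, 46.3 and 43.9 CPM with CRE and 38.4, 41.9 and 37.6 CPM with CRE + VAF347 (log2 fold change -0.15, SE 0.08), and *COL6A2* had a log2 fold change of -0.25 (SE 0.13). None of the 3 type VIII and type X chains was tested.

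None of the 11 tested maturation genes passed both thresholds in either direction (0 lower and 0 higher in edgeR and in DESeq2). In edgeR 1.71% of all genes tested passed lower and 0.501% higher, so 0 of 11 lies near these shares. The fitted change was under 0 for 9 of the 11, against 47.9% of all genes. At an unadjusted p under 0.05 in edgeR 3 were lower, against 11.9% of all genes, and 0 higher, against 8.87%. At an adjusted p under 0.05 only *LOXL2* was lower, 1 of 11 against 4.07%. *LOXL2* (ENSG00000134013.16, chr8:23296897-23425328), a lysyl oxidase that cross-links type IV collagen and the only abundant member of its family here, was at 427, 419 and 481 CPM with CRE and 359, 343 and 323 CPM with CRE + VAF347. The groups did not overlap, and the log2 fold change was -0.37 (SE 0.07, adjusted p = 0.0114, edgeR). The adjusted p was over 0.05 with the effective length offset (0.101) and without CRE + VAF347 replicate 2 (0.0641) or replicate 3 (0.0687). *LOXL3* and *LOXL4*, both under 4 CPM, had log2 fold changes of -0.49 (SE 0.25) and -0.52 (SE 0.28) with adjusted p of 0.286 and 0.314 in edgeR, and *LOXL1* one of 0.06 (SE 0.13). *SERPINH1* was at 180.5, 201.3 and 174.3 CPM with CRE and 164.8, 166.7 and 151.8 CPM with CRE + VAF347, without overlap, at a log2 fold change of -0.20 (SE 0.07, adjusted p = 0.127, edgeR).

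The hydroxylases were close to level. *P4HB* was at 601.7, 662.7 and 707.8 CPM with CRE and 593.1, 615.2 and 650.6 CPM with CRE + VAF347, and the log2 fold change was -0.09 (SE 0.07, adjusted p = 0.538, edgeR). Of the catalytic alpha subunits, *P4HA1* had a log2 fold change of -0.05 (SE 0.07) and *P4HA2* one of 0.13 (SE 0.07). *PLOD3*, which also glycosylates collagen, was at 132.7, 125.4 and 142.8 CPM with CRE and 126.9, 113.0 and 122.9 CPM with CRE + VAF347 (log2 fold change -0.14, SE 0.07, adjusted p = 0.264, edgeR). *PLOD2*, which hydroxylates the telopeptides, was at 115.3, 109.1 and 112.1 CPM and 112.0, 105.9 and 97.4 CPM (-0.09, SE 0.07, adjusted p = 0.45, edgeR). *PLOD1* had a log2 fold change of -0.19 (SE 0.06) and groups that did not overlap, with an adjusted p of 0.106 in edgeR. These values leave room for a modest fall, and an adjusted p over 0.05 does not show that the enzymes were the same in both groups.

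Set against the maturation genes, collagen transcripts were a smaller amount after VAF347. Collagen TPM summed to 270.4, 271.7 and 340.1 with CRE and 230.0, 218.3 and 218.0 with CRE + VAF347, and the maturation genes to 935, 969 and 1177 TPM and 943, 905 and 916 TPM. The ratio of these sums was 0.286 ± 0.00514 (SD, n = 3) with CRE and 0.241 ± 0.00309 with CRE + VAF347, 84.2% of the CRE level, and the groups did not overlap. In an exact permutation test, 3 libraries against 3 cannot give a p under 0.1. CRE replicate 3 was the highest library in both sums; without it, 4 collagens were called rather than 7, and the median log2 fold change of the collagens was -0.32.

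In the wider collagen pathway no gene passed both thresholds. Of 42 further genes for prolyl 3-hydroxylation and folding, glycosylation, export, propeptide processing, type IV cross-linking, receptors and fibril-binding proteoglycans, 28 were tested. Both edgeR and DESeq2 called 0 lower and 0 higher. In edgeR 1.71% of all genes were called lower and 0.501% higher, so 0 of 28 lies near these shares. At an unadjusted p under 0.05 in edgeR, 7 were lower, against 11.9% of all genes, and 2 were higher, against 8.87%. The fitted change was under 0 for 20 of the 28, against 47.9% of all genes, with a median of -0.12, and the groups did not overlap for 8 below, against 14.8%, and 2 above, against 12.5%. At an adjusted p under 0.05 and any fold, 3 were lower, against 4.07% of all genes, and 1 was higher, against 1.35%. These 4 are named after their values were seen. *P3H2*, a prolyl 3-hydroxylase with a preference for type IV collagen, was at 120, 128 and 140 CPM with CRE and 94.7, 93.9 and 90.8 CPM with CRE + VAF347 (log2 fold change -0.47, SE 0.07, adjusted p = 0.00253, edgeR). *COLGALT1*, which adds galactose to hydroxylysine, had a log2 fold change of -0.32 (SE 0.06, adjusted p = 0.00753, edgeR), and *P3H4*, a partner of lysyl hydroxylase, one of -0.28 (SE 0.07, adjusted p = 0.0359, edgeR). *TMEM38B*, an endoplasmic reticulum cation channel needed for collagen modification, was higher, at 37.5, 33.7 and 35.7 CPM with CRE and 48.5, 46.5 and 54.0 CPM with CRE + VAF347 (0.48, SE 0.08, adjusted p = 0.00602, edgeR). The 7 export genes had a median of 0.01 and the 5 tested receptors one of -0.07, and all 4 proteoglycans were listed at 0 TPM in every library.

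The transcripts of these genes are rich in G and C, with a median GC content of 59.2% for the tested collagens and 58.8% for the tested maturation genes against 50.1% for all genes tested. Genes within 1 percentage point of a member's GC content had median log2 fold changes from -0.11 to 0.11, and -0.11 around *COL9A2*. With a GC offset 5 collagens were called, without *COL5A1* (-0.47) and *COL27A1* (-0.56). Of the called genes, *COL12A1* and *COL28A1* have a GC content of 45.7% and 45.2%, under the median of all genes. The others lie over it: *COL17A1* (52.0%), *COL27A1* (58.8%), *COL5A1* (59.2%), *COL9A3* (63.7%) and *COL9A2* (67.1%). Whether GC content has a part in the falls was not tested. *COL9A2*, *COL9A3* and *COL12A1* were called in every edgeR and DESeq2 fit other than glmTreat, a test against the fold threshold itself, with log2 fold changes from -0.96 to -0.58.

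**Figure D4:**
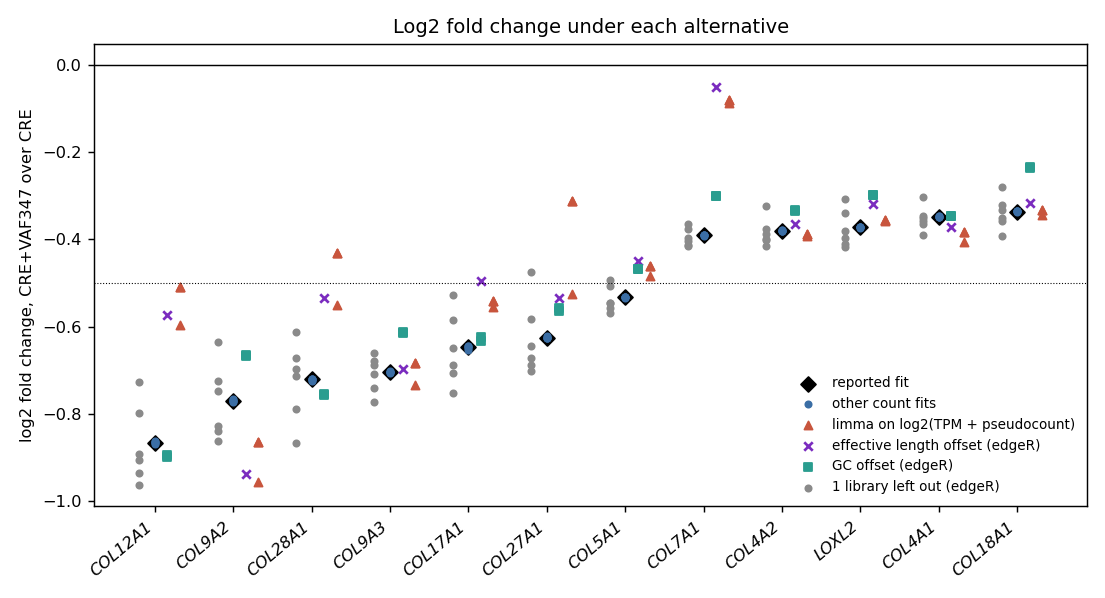
Log2 fold change of CRE + VAF347 over CRE for the 12 genes with an adjusted p under 0.05, in the fit reported and under each alternative; the dotted line marks the fold threshold of -0.5. All points lie under 0 on this axis, and *COL7A1* moves from -0.39 to -0.05 when effective length is taken into account.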

How the data were processed

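Poly(A) RNA-seq of 3 CRE and 3 CRE + VAF347 libraries of HBE cells was analysed, grouped by the deposited labels. Expected counts (estimated counts) per gene and TPM values were made by the authors with Salmon and deposited for each library; the counts are not scaled to depth. The submitters' processing notes name hg38. The Salmon version, annotation and strand setting are not given in the sources used here. All 61228 gene names were found in GENCODE v44, which gave positions, GC content and overlaps. A deposited table of fold changes and p-values, made by the authors with DESeq2, was not used, and 0 columns were left unmatched.

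Counts were rounded (14.5% were not whole) and tested with edgeR 4.0.16 under R 4.3.3, by the quasi-likelihood test after filterByExpr and TMM scaling, with Benjamini-Hochberg adjustment over 15373 genes. Calls needed both an adjusted p under 0.05 and a change of more than 0.5 on the log2 scale, and the standard error is the fold change over the square root of F. CPM is the count scaled to the TMM library size, and deposited TPM sum to 1000000 in each library. Genes at 3 counts or fewer in every library were taken as at the floor, which covers counting error only. Levels between genes were compared in TPM. The effective length of a gene is its count over its TPM, scaled within a library.

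The genes and lists were chosen with earlier results of these data known. All members may be named, with full values for those called and the 5 most abundant collagens and enzymes; pathway genes are named where called, and 4 more that passed the adjusted p alone were chosen after their values were seen. Alternatives were DESeq2 1.42.0, its size factors, other filters, a replicate block, limma 3.58.1 on log2(TPM + pseudocount) with pseudocounts of 1 and 0.1 and a minimum mean of 1 TPM, offsets for effective length and GC content, glmTreat, and each library left out. The fits were tested on simulated data. Sequences are from RefSeq tables.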

Additional observations from a re-analysis of the deposited data

How the results depend on the processing

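Direction held for all 12 genes with an adjusted p under 0.05 under every alternative run, while some genes without a call turned. Under the alternatives, the 32 tested genes had 523 values. Of these, 459 kept direction and call status, 47 kept direction but lost the call (21 of them with limma), and 17 turned in direction. The 17 lay in 5 genes, and 0 of them had an adjusted p under 0.05. A call needs both thresholds. *COL4A1*, *COL4A2*, *COL7A1*, *COL18A1* and *LOXL2* passed the adjusted p alone. They thus count as kept even where that adjusted p rose over 0.05, as with limma and a pseudocount of 1. *COL16A1* was at 0.118 with limma and a pseudocount of 1, filtered or not, 0.189 with a pseudocount of 0.1, 0.270 with the length offset, 0.0029 with the GC offset and 0.0030 with GC offset and block. *LOXL1* was at -0.020 with limma and a pseudocount of 1, filtered or not, -0.021 with 0.1 and -0.00037 with the length offset, and *COL4A5* at 0.032 with the length offset. With 1 library left out, *COL5A2* ran from -0.47 to 0.21, *COL4A6* from -0.038 to 0.110, *COL16A1* from -0.25 to 0.027 and *LOXL1* from -0.098 to 0.136. The 7 collagens called lower became 0 with limma on TPM with a pseudocount of 1, at 0.1 and with no filter, 0 with glmTreat, which tests against the fold threshold itself, 3 with the effective length offset, 4 with the GC offset and replicate block together, and 4 to 5 when 1 library was left out. At any fold change there were 11. These counts are given without the share of all genes called in the same fit. They do not show whether collagens lost calls more than other genes did. Enzymes called lower went from 0 to 1 at any fold change. Pathway genes called lower went from 0 to 1 with the GC offset, with or without the block, to 3 at any fold change, and to 0 to 1 with 1 library left out; those called higher went to 1 at any fold change and to 0 to 1 with 1 library left out. The median log2 fold change of the collagens was -0.058 with limma and no filter, where 42 collagens entered, and -0.39 to -0.32 with 1 library left out. That of the enzymes was -0.080 with the length offset and -0.19 to -0.10 with 1 library left out. The causes were not tested.

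It is not known from the labels whether the replicate numbers pair the libraries. Deviations of same-numbered libraries correlated at 0.02 to 0.05 (3 pairs) and those of other pairs at -0.04 to 0.01 (6 pairs). Each library thus correlated best with its own number, but all of these correlations were weak. With the replicate block 5 collagens were called, without *COL27A1* and *COL28A1*. At these depths 3 counts correspond to about 0.3 CPM, and 16 of the 25 untested genes never exceeded that count.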
